A study of Mus musculus with 15 samples.

Results

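Mouse bone marrow derived macrophages exposed to heme-albumin at 400 µM were compared directly with macrophages exposed to interleukin 4 (IL-4) at 10 ng/ml. The comparison takes the 3 libraries of each treatment, 6 of the 15 libraries of the series, and describes all genes. Both groups were made from marrow of the femurs and tibias of mice 8 to 10 weeks old, grown into macrophages over 7 days in medium with fetal calf serum and M-CSF, the macrophage growth factor, at 10 ng/ml, so every culture compared carried M-CSF during its growth. Heme-albumin was hemin dissolved in alkali and bound to human serum albumin, and the submitters use it to model macrophages that take up red cells. IL-4 was used to bring about the alternatively activated, or M2, state. Untreated controls, heme-albumin at 200 µM and interferon gamma at 10 ng/ml (3 libraries each) were sequenced beside them, and control levels are given below as a reference. The dose tag of replicates 2 and 3 reads 401 and 402 µM where their titles read 400. Mouse strain, sex, and time under treatment are not stated, and the controls carry no treatment label, so none is named as albumin without heme. Each replicate number carries its own date in the column names, the same in both groups.

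Heme is the iron-porphyrin of hemoglobin. A macrophage that clears red cells splits it with heme oxygenase and then stores or exports the iron. Free heme also relieves repression by BACH1 and activates NRF2, a transcription factor that binds antioxidant response elements in genes of glutathione and thioredoxin metabolism. IL-4 acts through a receptor that phosphorylates STAT6, which binds palindromes with the ends TTC and GAA. Its best known targets in mouse macrophages are arginase 1, the resistin-like protein Retnla, the chitinase-like proteins Chil3 and Chil4, and the mannose receptor Mrc1. Both states are often described as anti-inflammatory, and the direct comparison asks how far their transcripts differ.

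Stretches upstream of the transcription start are printed for some members of these programmes whose promoter holds a searched motif. Whether the motifs bear on the differences below was not tested. The first set holds the STAT-type palindromes of genes higher with IL-4, with the fixed letters in capitals, all 5′ to 3′ on the gene's strand. With N for any base, Retnla, Pdcd1lg2 and Itgax hold TTCNNNNGAA, the STAT6-type palindrome. Chil3 and Chil4 hold TTCNNNGAA, a STAT palindrome with a shorter spacer.
Retnla: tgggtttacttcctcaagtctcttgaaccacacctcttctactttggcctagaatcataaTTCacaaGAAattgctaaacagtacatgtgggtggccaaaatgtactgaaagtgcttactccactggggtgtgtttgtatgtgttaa
Pdcd1lg2: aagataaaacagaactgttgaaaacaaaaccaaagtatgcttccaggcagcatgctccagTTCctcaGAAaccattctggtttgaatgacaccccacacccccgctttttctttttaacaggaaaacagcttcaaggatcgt
Itgax: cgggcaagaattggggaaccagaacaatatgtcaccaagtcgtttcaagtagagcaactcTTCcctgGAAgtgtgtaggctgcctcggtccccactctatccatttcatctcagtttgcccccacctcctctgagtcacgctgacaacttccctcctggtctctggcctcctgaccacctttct
Chil3: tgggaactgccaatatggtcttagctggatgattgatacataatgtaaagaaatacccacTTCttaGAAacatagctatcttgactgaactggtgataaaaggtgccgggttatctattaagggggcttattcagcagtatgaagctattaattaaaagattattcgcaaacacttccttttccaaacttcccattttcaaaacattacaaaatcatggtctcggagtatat
Chil4: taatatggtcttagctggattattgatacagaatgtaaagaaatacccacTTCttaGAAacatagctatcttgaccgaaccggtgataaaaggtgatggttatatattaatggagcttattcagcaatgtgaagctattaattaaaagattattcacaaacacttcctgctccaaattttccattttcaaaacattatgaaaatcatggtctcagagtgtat
These stretches lie at chr16:48842404-48842550 (+ strand) for Retnla, chr19:29410777-29410918 (+) for Pdcd1lg2, chr7:128129363-128129546 (+) for Itgax, chr3:106167565-106167796 (-) for Chil3 and chr3:106219508-106219729 (-) for Chil4. Chil3 and Chil4, which stand next to each other on chromosome 3, carry the same palindrome in a closely similar surrounding. The second set holds the antioxidant response element core of genes higher with heme-albumin, read on the other strand in Gclm and Prdx1.
Gclm: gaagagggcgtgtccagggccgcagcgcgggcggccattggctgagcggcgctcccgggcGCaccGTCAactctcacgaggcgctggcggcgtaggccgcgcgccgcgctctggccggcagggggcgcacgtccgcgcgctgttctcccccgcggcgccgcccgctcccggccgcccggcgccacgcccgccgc
Prdx1: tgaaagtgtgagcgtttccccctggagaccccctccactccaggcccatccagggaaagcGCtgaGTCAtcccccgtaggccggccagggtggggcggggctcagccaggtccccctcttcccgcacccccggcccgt
Gsta3: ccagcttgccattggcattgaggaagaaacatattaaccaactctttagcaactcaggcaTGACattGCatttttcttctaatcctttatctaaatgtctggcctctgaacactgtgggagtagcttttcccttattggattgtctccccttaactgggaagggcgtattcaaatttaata
They lie at chr3:122245363-122245556 (+) for Gclm, chr4:116685406-116685543 (+) for Prdx1 and chr1:21240404-21240584 (+) for Gsta3. All sequences come from RefSeq promoter windows of GRCm38.p6, which run from 250 bases before to 50 after a RefSeq start, and were ended upstream of any exon annotated in GENCODE M21.

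The motifs searched on both strands were TGACNNNGC for the antioxidant response element, within which the AP-1 letters TGACTCA can lie, and the palindromes TTCNNNNGAA and TTCNNNGAA, which other STAT proteins also bind. The windows numbered 32851, over 27025 genes. TTCNNNNGAA was in 9 of 27 windows of the alternative activation genes (33.3%), against 6.95% of all windows, and 2 of the 9 are overlapping windows of Clec7a. It was in 0 of 19 windows of the IL-4 signalling list and 2 of 33 of the NRF2 list (6.06%). The shorter TTCNNNGAA was in 4 of 27 windows of the alternative activation genes (14.8%), 2 of 19 of the IL-4 signalling list (10.5%) and 4 of 33 of the NRF2 list (12.1%), against 8.30% of all windows. TGACNNNGC was in 12 of 33 windows of the NRF2 list (36.4%), 5 of 19 of the IL-4 signalling list (26.3%) and 3 of 27 of the alternative activation genes (11.1%), against 12.4% of all windows. Of the 5 windows of the IL-4 signalling list with TGACNNNGC, 3 are overlapping windows of Egr2 that hold the same site. The share of 26.3% therefore counts that site more than once. The remaining matches of that list are in Pparg and Il4ra. Over all genes called below, the shares lay close to those of genes not called. TTCNNNNGAA was in 5.93% of windows of genes higher with IL-4, 5.06% of genes higher with heme-albumin and 5.50% of tested genes not called, and TGACNNNGC was in 14.9%, 15.8% and 13.9% of them. Palindromes also stood in windows of Il1f9, Rnf183, Mgst2 and Fpr2, which were higher with heme-albumin. TGACNNNGC stood in the window of Itgax, which was higher with IL-4. A match is a run of letters, with no measure of binding, and 167 of the 227 genes selected for naming had a window.

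Total counts ran from 9069999 to 13182889 in the heme-albumin libraries and from 15945686 to 28587416 in the IL-4 libraries, and 11883 of 25700 genes passed the filter for testing. The share of all counts held by the 10 top genes was 16.04 to 20.5% with heme-albumin and 11.96 to 13.1% with IL-4. Heme-albumin replicate 2 stood apart from its group, with 627 tested genes over 2-fold from the mean of replicates 1 and 3 (0.5 CPM added), where replicates 1 and 3 gave 210 and 101 and the IL-4 replicates 23 to 93. Among the genes named below, replicate 2 was high for Il1f9, Clec4n, Slc7a11 and Itgax and low for Marco, Mrc1 and Treml4. Replicate 2 of heme-albumin 200 µM carries the same date. It was also the highest of its group for Il1f9 (46.3 against 3.43 and 6.79 CPM) and Clec4n (1616 against 641 and 1269 CPM). For Marco (1267 against 2454 and 1957 CPM) and Treml4 (251 against 345 and 367 CPM) it was the lowest. How far this held over other genes was not tested.

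Levels are in CPM, each gene's count scaled to a fixed library total with TMM, and a difference is a fitted log2 fold change ± SE of heme-albumin over IL-4, so positive values are higher with heme-albumin. A gene was called at an edgeR quasi-likelihood adjusted p under 0.05, with n = 3 libraries a group throughout. Where a group had no count, the fold is a lower bound set against 3 counts over that group, and where it had 1 to 3 counts the ratio has a 95% counting interval. Such bounds and intervals hold counting error alone. The labels do not tie a replicate to its own animal or culture. The p-values speak of a spread between libraries that was estimated over all 15 libraries of the series, and part of it may be technical.

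Of the 11883 genes, 2427 were higher with heme-albumin (20.4% of those tested) and 2352 were higher with IL-4 (19.8%). Both shares are the reference for the counts of list members below. By at least 2-fold, 1154 were higher and 798 lower, and by at least 8-fold 282 and 163. The median log2 difference over all genes was -0.004. Of the 4779 genes called, 4684 had no overlap between the 3 libraries of each treatment, against 6665 of all genes tested. For 7378 genes (62.1%), the 95% interval of the difference lay within 2-fold either way, and 1837 of these were called. A further 1563 genes were neither called nor bounded in this way.

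**Figure D1:**
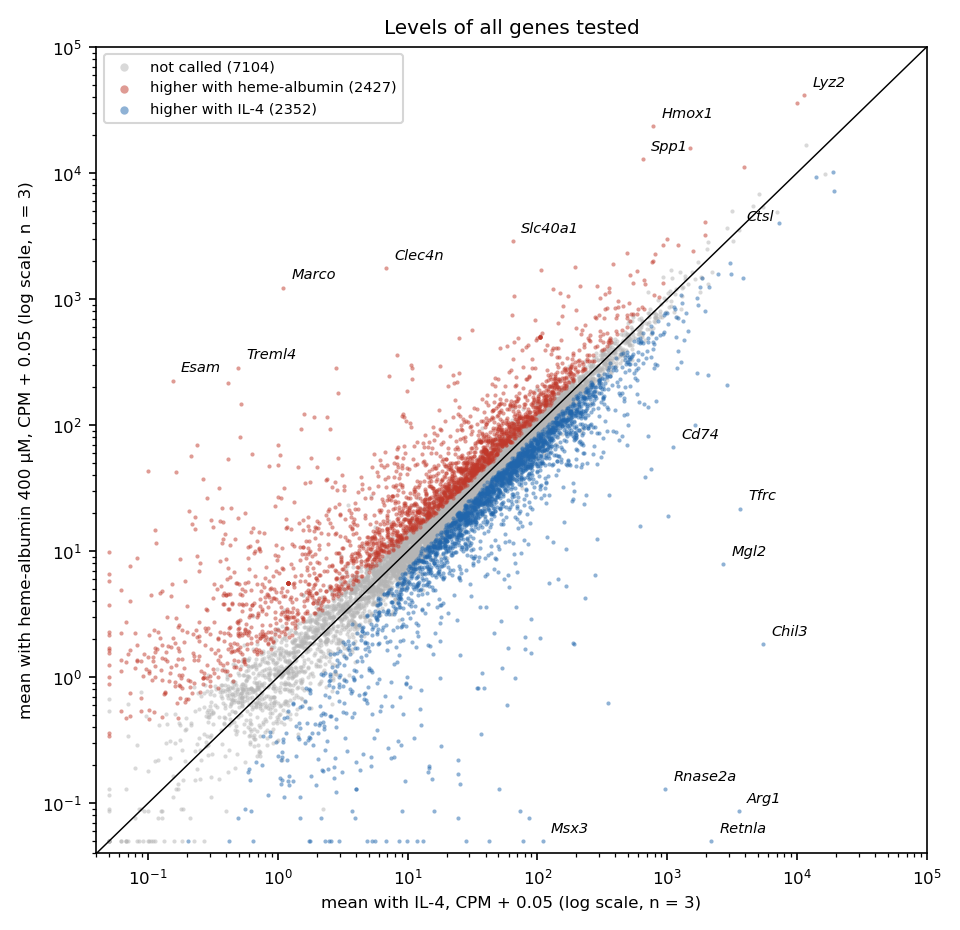
Mean level with heme-albumin 400 µM (vertical) against mean level with IL-4 (horizontal) of the 11883 genes tested, in CPM with 0.05 added, on log axes, with n = 3 libraries a group. Red points are the 2427 genes higher with heme-albumin, blue points the 2352 higher with IL-4, and the line marks equal levels. Retnla and Msx3 lie on the lower edge, with no counts in heme-albumin.

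The control means place these differences. Of the 1154 genes at least 2-fold higher with heme-albumin, the control mean lay between the means of both treatments for 833, above both for 133 and below both for 188. It was within 2-fold of IL-4 alone for 452, and within 2-fold of heme-albumin alone for 241. Of the 798 genes at least 2-fold higher with IL-4, 363 had a control mean within 2-fold of heme-albumin alone and 129 within 2-fold of IL-4 alone. The first kind includes Chil3 and the second Scd1, both described below. These are counts over means with 0.5 CPM added, without a test.

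The 3 genes that mark the comparison were far apart. Hmox1 encodes the inducible heme oxygenase. Its level was 22408, 25557 and 22510 CPM with heme-albumin and 858, 628 and 867 CPM with IL-4, close to the control mean of 866 ± 219 CPM (SD). The groups did not overlap, and the difference was 4.90 ± 0.29 (edgeR adjusted p = 4.85e-08). Arg1, arginase 1, which turns arginine into ornithine and urea, had 1 count in all 3 heme-albumin libraries together and 220477 counts with IL-4. In the IL-4 libraries this came to 4026, 3649 and 2980 CPM, and the ratio in favour of IL-4 was 104012 (95% counting interval 18668 to 4108270; edgeR adjusted p = 3.18e-08). Controls held 1.28 ± 0.885 CPM. Marco, a scavenger receptor for bacteria and particles, was at 2037, 193 and 1459 CPM with heme-albumin and at 1.47, 0.477 and 1.22 CPM with IL-4, for a difference of 10.17 ± 1.80 (edgeR adjusted p = 0.00068). Heme-albumin replicate 2 was the low library, and without it the difference was 10.68. Controls stood between the treatments, at 195 ± 133 CPM.

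**Figure D2:**
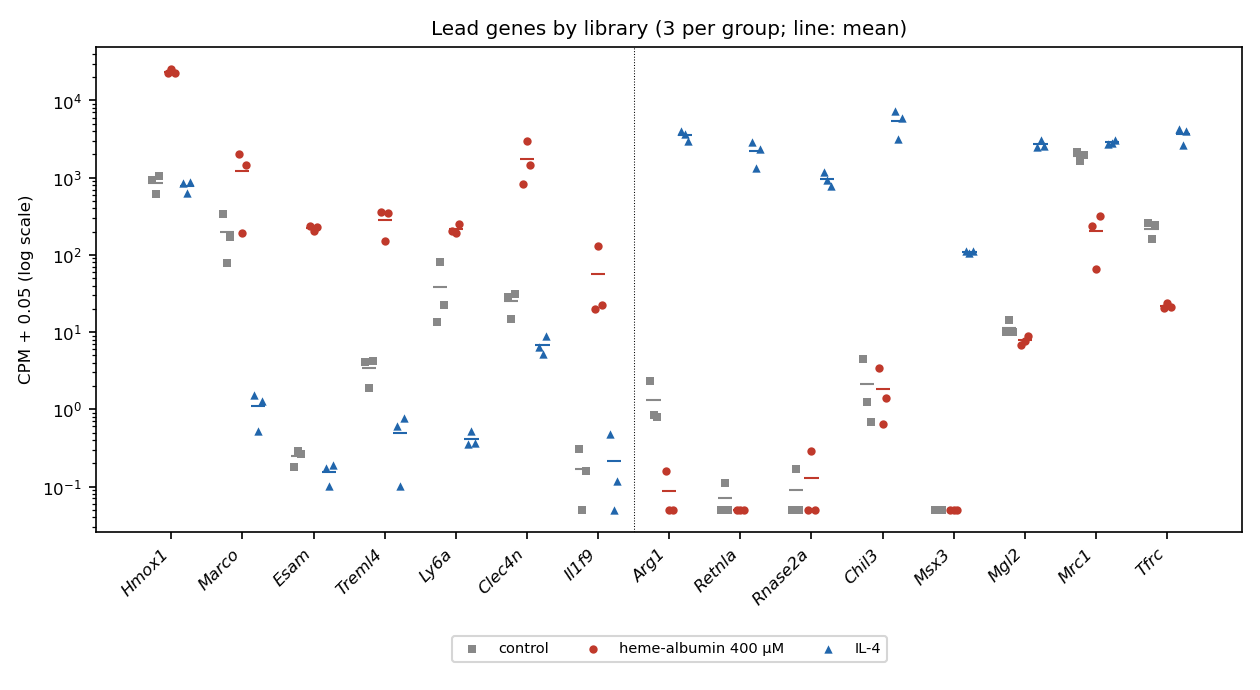
Level of 15 genes in each control, heme-albumin 400 µM and IL-4 library, in CPM with 0.05 added on a log axis, with 3 libraries a group and a short line at each mean. Genes left of the dotted line were higher with heme-albumin and genes right of it higher with IL-4. No heme-albumin library overlaps an IL-4 library for any of the 15 genes.

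All cultures carried macrophage transcripts. All 10 macrophage markers were tested, and Adgre1 (F4/80), Csf1r and Itgam differed by less than 2-fold within their 95% intervals. Mertk was not called (-0.84), and its interval did not lie within 2-fold. Lyz2 (lysozyme), Cd14, Fcgr1 and Aif1 were higher with heme-albumin, and Cd68 and Spi1 were lower. The Spi1 call (edgeR adjusted p = 0.0303) was lost without heme-albumin replicate 2 (0.113) or 3 (0.0504) or any 1 IL-4 replicate (0.0558 to 0.0847), and in the 6 libraries alone, with (0.0683) or without (0.0511) the replicate block. The summed level of the macrophage list was 42150 to 52242 CPM with heme-albumin and 14553 to 20641 CPM with IL-4, most of it Lyz2 (41385 ± 4941 and 11341 ± 2709 CPM, SD). In bulk RNA, fewer cells of a type and less RNA per cell cannot be told apart.

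Markers of other cell types were also measured. Erythroid genes summed to at most 0.985 CPM in any of the 6 libraries, with 4 of 7 at 0 counts in both groups, and mast cell and basophil genes to at most 1.09 CPM. Dendritic cell genes summed to 0.314 to 0.438 CPM with heme-albumin and 2.701 to 5.88 CPM with IL-4, where 2 of the 3 tested, Cd209a and Zbtb46, were higher, and Xcr1 and Siglech had no counts. Zbtb46 was too low to test in the 6 libraries alone, which leaves 1 there, with or without the replicate block. The T and NK cell list summed to 112 to 446 CPM with heme-albumin and 166 to 186 CPM with IL-4, almost all of it Il7r, and of 4 tested Lck was higher (1.93 ± 0.53) and Cd2 lower (-2.00 ± 0.47), while Cd3e, Cd3d, Cd8a and Ncr1 were at 0. B cell genes summed to 1.57 to 1.80 CPM with heme-albumin and 0.451 to 0.551 CPM with IL-4, with the 1 gene tested higher (Cd79b, 2.08 ± 0.35) and Pax5 at 0. Stromal and endothelial genes summed to 28.7 to 30.6 CPM and 17.2 to 30.0 CPM. Of 5 tested, Acta2 was higher with heme-albumin (3.09 ± 0.32) and Pecam1 (-2.12 ± 0.50), Kdr (-1.16 ± 0.38) and Cxcl12 were lower, and 1 was lower without heme-albumin replicate 1 or 3 or IL-4 replicate 1 or 2 or in the 6 libraries alone. Platelet chemokines stood out. The megakaryocyte and platelet list summed to 361 to 680 CPM with heme-albumin and 83.6 to 112 CPM with IL-4, through Pf4 and Ppbp, while Gp9 was at 0 and Itga2b under 0.3 CPM in each group's mean. Of 3 tested, 2 were higher and 1 lower, Gp1bb (-1.96, edgeR adjusted p = 0.0279), with 4 counts with heme-albumin and 34 with IL-4. Gp1bb was not called without heme-albumin replicate 2 (0.0890) or 3 (0.0698) or any 1 IL-4 replicate (0.0527 to 0.0639). It was also not called by DESeq2 or in the 6 libraries alone. Neutrophil genes summed to 44.1 to 80.4 CPM and 27.2 to 56.2 CPM, with 1 of 5 tested higher (Mpo) and none lower, and with 0 higher when heme-albumin replicate 1 or IL-4 replicate 3 was left out and 2 without IL-4 replicate 1. Mpo was too low to test in the 6 libraries alone, and 0 were higher there with the replicate block. The part of other cell types in the results below was not tested.

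The largest differences in favour of heme-albumin were in genes nearly silent with IL-4. Esam, an adhesion molecule of endothelium and of some myeloid cells, was at 238, 206 and 230 CPM against 0.122, 0.053 and 0.139 CPM with IL-4, a difference of 10.90 ± 0.21 (edgeR adjusted p = 6.35e-13). Controls held 0.195 ± 0.0596 CPM, so this gene was low in both other groups. Treml4, a receptor of the TREM family that splenic macrophages carry, was at 356, 152 and 349 CPM against 0.551, 0.053 and 0.729 CPM (9.21 ± 0.83, edgeR adjusted p = 2.89e-06, and 9.93 without IL-4 replicate 3). Ly6a, the surface protein Sca-1, was at 204, 192 and 253 CPM against 0.306, 0.477 and 0.313 CPM (9.20 ± 0.73). Its control mean of 38.8 ± 36.4 CPM varied between libraries. Clec4n (dectin-2), a receptor for fungal mannans, was at 827, 3007 and 1468 CPM against 6.43, 5.08 and 8.93 CPM (8.01 ± 0.84, and 7.38 without heme-albumin replicate 2). Mgst2, a microsomal glutathione transferase, differed by 8.28 ± 0.34, and the formyl peptide receptors Fpr1 and Fpr2, which sense bacterial peptides, by 8.48 ± 1.48 and 8.50 ± 1.01. Control means were 3.34 CPM for Treml4, 24.9 CPM for Clec4n and 1.32 CPM for Mgst2. Fpr1 was at 8.16 CPM in controls, between 69.5 CPM with heme-albumin and 0.189 CPM with IL-4. Fpr2 was at 9.60 CPM in controls, between 42.6 and 0.114 CPM. Fpr2 overlaps another gene's exons.

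Some of these genes had few or no counts with IL-4. Rnf183, a ubiquitin ligase, was at 44.2, 43.0 and 41.7 CPM with heme-albumin and had 3 counts with IL-4, a ratio of 914 (95% counting interval 312 to 4439). Adh7, an alcohol dehydrogenase, and the kinase gene Hunk had no count with IL-4, and were at least 108-fold and at least 75.6-fold higher with heme-albumin. Adh7 was at 1.75, 13.5 and 1.89 CPM, so most of its counts were in replicate 2. Ptpn14, a tyrosine phosphatase, was at 0.766, 17.4 and 1.41 CPM, at least 120-fold higher, and its call rested on replicate 2 (edgeR adjusted p = 0.017, and 0.0630 without it). Il1f9, a cytokine of the interleukin-1 family, was at 19.7, 130 and 22.6 CPM against 0.428, 0 and 0.0695 CPM (8.56 ± 1.46, and 7.12 without heme-albumin replicate 2 and 10.15 without IL-4 replicate 1).

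With IL-4, the largest differences included members of the alternative activation list. Retnla had no count in the 3 heme-albumin libraries and 2872, 1349 and 2360 CPM with IL-4, at least 22070-fold higher. Rnase2a, an eosinophil-type ribonuclease, was at 1176, 929 and 790 CPM with IL-4 and had 2 counts with heme-albumin, a ratio of 14036 (95% counting interval 3885 to 115898). Msx3, a homeobox gene, was at 112, 107 and 111 CPM with IL-4 and had no count with heme-albumin or in controls, at least 1105-fold. Scn3a and Kcnd3 encode subunits of a sodium and a potassium channel, and were at least 415-fold and 282-fold higher with IL-4, again with no count in controls. Cldn11, a tight junction claudin, was at 77.3, 99.1 and 82.6 CPM and Tuba8, an alpha-tubulin, at 95.4, 49.4 and 74.2 CPM, each with 1 count with heme-albumin. Bex1, Rbp4 (the retinol carrier) and Pmepa1 were at least 127-fold, 122-fold and 98.9-fold higher with IL-4. Rbp4 was not called by DESeq2 (adjusted p = 0.0986).

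Heme breakdown was higher with heme-albumin beyond Hmox1. Of 13 tested genes of heme breakdown and transport, 7 were higher and 1 lower, with a median difference of 0.57. Slc48a1 (HRG1), which carries heme out of the phagolysosome, was at 1207, 1467 and 1368 CPM against 551, 465 and 621 CPM (1.30 ± 0.21, edgeR adjusted p = 0.00031). Abcb6, a porphyrin transporter, differed by 1.80 ± 0.11. The biliverdin reductases went opposite ways. Blvrb was at 336, 263 and 324 CPM against 180, 184 and 194 CPM (0.72 ± 0.22, edgeR adjusted p = 0.0197), and Blvra was lower by 0.46 ± 0.12, at 102 ± 14.2 against 141 ± 5.13 CPM (SD). Cd163, the haptoglobin-hemoglobin receptor, was low in all groups and not called, at 2.80 ± 1.61 against 5.01 ± 0.367 CPM (SD). Lrp1, the hemopexin receptor, was at 518 ± 391 against 503 ± 254 CPM (SD), with a 95% interval too wide to bound it within 2-fold. Without IL-4 replicate 1 or 2 the count of higher genes was 4, and without heme-albumin replicate 3 the count of lower genes was 2. The Blvrb call was lost without heme-albumin replicate 1 (0.0564) or 3 (0.0564) or IL-4 replicate 1 (0.0585) or 2 (0.0565).

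Iron genes held large differences in both directions. Slc40a1 (ferroportin), the cellular iron exporter, was at 2603, 2694 and 3377 CPM with heme-albumin and 77.9, 36.0 and 79.2 CPM with IL-4, a difference of 5.49 ± 0.47 (edgeR adjusted p = 1.63e-06). Tfrc, the transferrin receptor that brings iron in, was at 20.6, 23.6 and 20.8 CPM against 4212, 2666 and 4083 CPM, lower with heme-albumin by 7.40 ± 0.32 on the log2 scale (edgeR adjusted p = 4.60e-09). Controls lay between the treatments for both genes, at 216 ± 91.0 CPM for Slc40a1 and 220 ± 51.4 CPM for Tfrc. Per kilobase of exon, the mean level of the exporter Slc40a1 exceeded that of the importer Tfrc with heme-albumin (321 against 3.50 CPM per kilobase), and the reverse held with IL-4 (7.15 against 591). Fth1, the heavy ferritin chain, was at 26735, 50548 and 31038 CPM against 8938, 10352 and 10622 CPM (1.86 ± 0.29). The light chain Ftl1 was not called (0.51 ± 0.22, edgeR adjusted p = 0.079), and its 95% interval lay within 2-fold. Both ferritin genes have near-identical copies in the genome, so reads may be split between them.

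Other iron genes followed in smaller steps. Slc11a1 and Slc39a14, which carry iron and other metals across membranes, were higher with heme-albumin by 1.32 ± 0.19 and 1.40 ± 0.14. Trf (transferrin), Hfe, Aco1 (iron regulatory protein 1) and Steap3, an endosomal ferric reductase, were lower with heme-albumin by 1.69 ± 0.24, 1.43 ± 0.15, 0.90 ± 0.11 and 0.58 ± 0.13. Ireb2, the second iron regulatory protein, was not called and its interval lay within 2-fold (0.15 ± 0.12). In all, 4 of 18 tested iron genes were higher and 7 lower, beside 20.4 and 19.8% over all genes, with a median of -0.21.

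**Figure D3:**
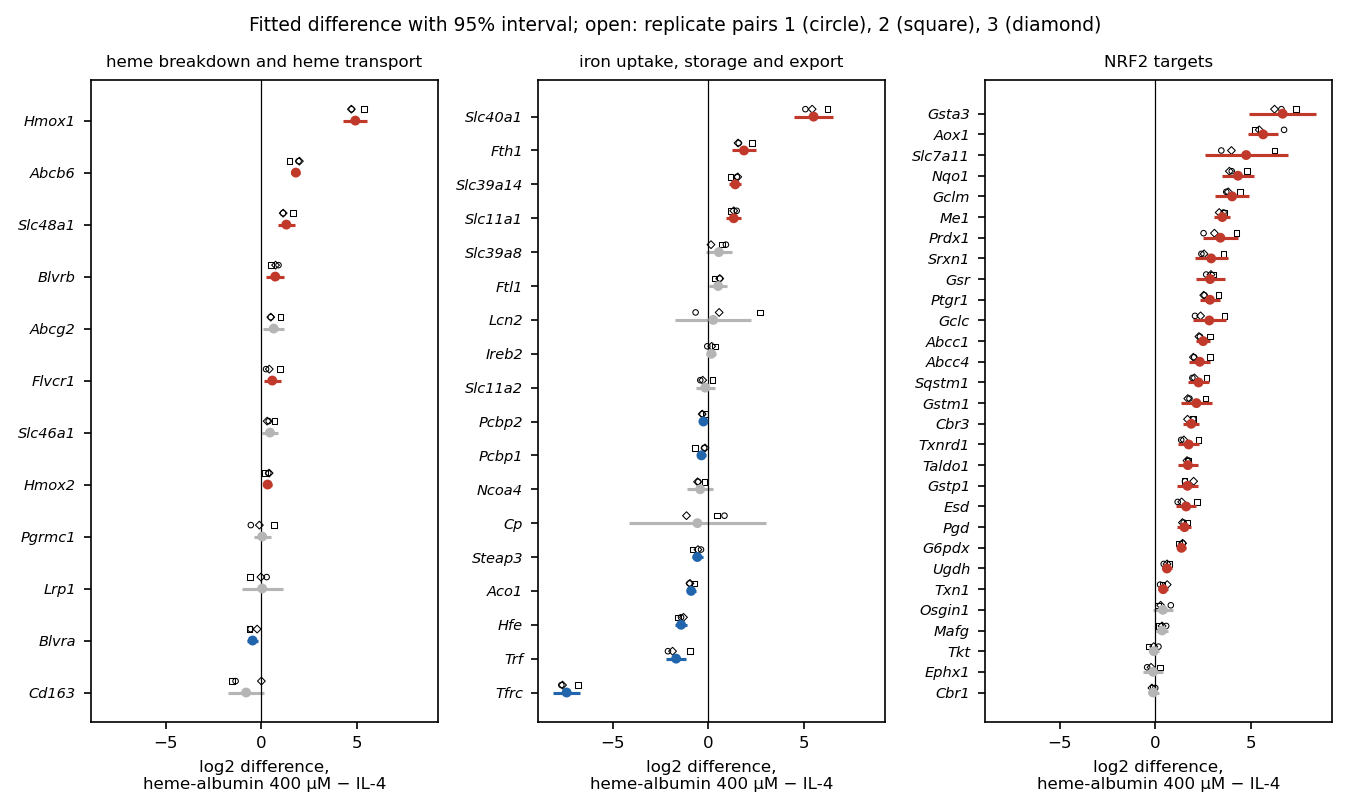
Fitted log2 difference of heme-albumin 400 µM over IL-4 (filled point) with its 95% interval (line) for genes of heme breakdown and transport, of iron handling and of the NRF2 list. Open marks show the difference within each replicate pair, red is higher with heme-albumin, blue higher with IL-4, and grey not called. Slc40a1 and Tfrc mark the ends of the iron panel, and 24 of 29 NRF2 genes are red.

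NRF2 targets were higher with heme-albumin in 24 of 29 tested genes and lower in none, with a median difference of 2.14, against -0.004 over all genes. Without heme-albumin replicate 2 the count was again 24, with a median of 1.82. Gsta3, a glutathione S-transferase, was at 219, 331 and 298 CPM against 2.26, 2.01 and 3.99 CPM (6.63 ± 0.81, edgeR adjusted p = 3.74e-05). Aox1, aldehyde oxidase, was at 15.99, 18.3 and 17.0 CPM against 0.122, 0.477 and 0.382 CPM (5.62 ± 0.36). Slc7a11, the cystine importer, was at 155, 534 and 169 CPM against 14.3, 7.15 and 10.8 CPM (4.73 ± 1.00, and 3.92 without replicate 2). Nqo1, a quinone reductase, was at 316, 778 and 385 CPM against 20.0, 28.2 and 26.5 CPM (4.30 ± 0.40). In each of these 4 genes the lowest heme-albumin library was more than 10-fold above the highest IL-4 library.

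The glutathione and NADPH steps moved with them. Gclm and Gclc, the subunits of the enzyme that starts glutathione synthesis, differed by 4.00 ± 0.41 and 2.81 ± 0.39, and Gsr, which regenerates glutathione, by 2.85 ± 0.35. Prdx1, a peroxiredoxin, reached 9357, 24876 and 13252 CPM against 1642, 1322 and 1572 CPM (3.39 ± 0.42). Of the enzymes that make NADPH, Me1 differed by 3.49 ± 0.19, Pgd by 1.51 ± 0.17 and G6pdx by 1.36 ± 0.11. Tkt, Cbr1, Ephx1, Osgin1 and Mafg were not called, and all 5 intervals lay within 2-fold. Ephx1 was high in both treatments (156 ± 35.4 and 170 ± 15.9 CPM, SD) against 37.9 CPM in controls.

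Proteasome subunits were higher in 17 of 31 and lower in 2, with a median of 0.35. Psmd11 (1.10 ± 0.11) and Psma5 (1.09 ± 0.10) exceeded 2-fold. Heat shock chaperones showed no common direction, with 3 of 13 higher and 2 lower, shares near the 20.4 and 19.8% over all genes. Dnajb4 was higher by 2.47 ± 0.20, and Hspa8 was within 2-fold (-0.08 ± 0.11). Without heme-albumin replicate 2, or without IL-4 replicate 2, 1 chaperone was higher, and without heme-albumin replicate 3 or IL-4 replicate 2 or 3, 1 was lower, and none with the replicate block in the 6 libraries alone. Of 20 genes of the integrated stress response, 1 was higher (the transporter subunit Slc3a2, 1.41 ± 0.31) and 5 were lower, beside 20.4 and 19.8% over all genes. Ddit3 (CHOP) was lower by 1.63 ± 0.25. The lower count was 3 without heme-albumin replicate 3 or IL-4 replicate 2, and 8 in the 6 libraries alone, with or without the replicate block. Among metallothioneins, Mt1 was lower with heme-albumin by 0.95 ± 0.16 and Mt3 higher by 5.14 ± 1.03. Mt3 was led by replicate 2, and differed by 4.08 without it. Metallothionein genes resemble each other closely.

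Alternative activation markers were higher with IL-4 in 25 of 27 tested genes, with a median difference of -5.32 that was the same with the 3 genes unseen in heme-albumin set at their bounds. Chil3 was at 7362, 3181 and 5976 CPM with IL-4 and 3.39, 0.599 and 1.34 CPM with heme-albumin (-11.60 ± 1.20, edgeR adjusted p = 9.61e-06, and -12.38 without heme-albumin replicate 1). Chil4 was at 91.4, 65.6 and 76.5 CPM with IL-4 and had no count with heme-albumin, at least 776-fold. Their reads may be split, since the genes are near-identical, as may those of Rnase2a and Ear2 (-4.39 ± 0.49). Mgl2, a galactose-binding lectin, was at 2529, 3041 and 2560 CPM with IL-4 against 6.79, 7.67 and 8.96 CPM (-8.43 ± 0.52), and its neighbour Clec10a differed by -2.57 ± 0.33. Per kilobase of exon, Retnla (3662), Chil3 (3374), Arg1 (1594), Rnase2a (1399) and Mgl2 (1294 CPM per kilobase) were the most abundant of the list with IL-4. In the heme-albumin libraries none of these 5 exceeded 3.73 CPM per kilobase.

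Surface and matrix genes of the list were among them. Pdcd1lg2 (PD-L2), a ligand of the T cell receptor PD-1, was at 17.8, 13.8 and 14.3 CPM against 0, 0.240 and 0.0786 CPM (-7.14 ± 0.64, and -8.15 without heme-albumin replicate 2). Itgax (CD11c) was at 772, 428 and 656 CPM against 7.23, 32.2 and 7.70 CPM (-5.32 ± 0.74, and -6.37 without replicate 2), and Tmem26 was at 387, 178 and 274 CPM against 8.10, 5.39 and 5.82 CPM (-5.44 ± 0.41). Slc7a2, an arginine importer, differed by -6.73 ± 0.38, and Fn1 (fibronectin) by -9.33 ± 0.84 with widely spread IL-4 libraries of 696, 130 and 225 CPM (-8.35 without the first). Flt1, Cdh1 (E-cadherin), Matk and Tgm2 (transglutaminase 2) differed by -5.30 ± 0.55, -3.49 ± 0.21, -3.21 ± 0.34 and -2.02 ± 0.28. The receptor gene Il31ra had no count with heme-albumin or in controls, at least 87.1-fold higher with IL-4. The chemokines Ccl24 (-6.66 ± 0.74) and Ccl22 (-3.53 ± 0.83) were also higher with IL-4, with differences of -5.76 and -2.24 without IL-4 replicate 1, and Ccl17 was too low to test.

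Untreated levels differed among the members. Mrc1, the mannose receptor, was at 2771, 2821 and 3064 CPM with IL-4 and 1935 ± 265 CPM (SD) in controls, and at 236, 65.1 and 319 CPM with heme-albumin (-3.80 ± 0.65, edgeR adjusted p = 0.000546). Cbr2, carbonyl reductase 2, was likewise near its control level with IL-4 (232 ± 98.0 against 208 ± 32.6 CPM, SD) and at 5.15, 0.240 and 7.31 CPM with heme-albumin (-5.70 ± 0.71, and -6.39 without replicate 3). Clec7a (dectin-1), at 407 ± 68.7 with IL-4, was at 87.3 ± 73.2 CPM with heme-albumin and 21.5 ± 2.36 CPM in controls (SD). Its call was lost without heme-albumin replicate 3 (edgeR adjusted p = 0.0147, and 0.0585 without it), and its difference of -2.23 was -3.15 without replicate 2. Folr2 was not called (-0.11 ± 0.41, interval within 2-fold, but 0.29 without heme-albumin replicate 2), and its control mean of 217 CPM was above both treatments. Ch25h, which makes 25-hydroxycholesterol, was called (-2.63 ± 0.84, edgeR adjusted p = 0.024) but not without heme-albumin replicate 2 (0.0898) or 3 (0.0530) or IL-4 replicate 1 (0.0501) or 3 (0.0577). Alox15 was the 1 member higher with heme-albumin (2.18 ± 0.62), at 2.44 ± 1.52 CPM (SD), and its edgeR adjusted p of 0.0129 became 0.0863 without heme-albumin replicate 3 and 0.0524 and 0.0617 without IL-4 replicates 2 and 3, leaving 0 members higher. Without IL-4 replicate 1 its difference was 3.19.

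Among IL-4 signalling genes the feedback inhibitors and induced factors differed most. Stat6 was at 274, 217 and 275 CPM against 257, 266 and 273 CPM, a difference of -0.06 ± 0.11 with a 95% interval from -0.28 to 0.17. The receptor chains Il4ra (0.70 ± 0.15), Il2rg (0.74 ± 0.13) and Il13ra1 (2.33 ± 0.20) were lower with IL-4 than with heme-albumin, whose levels lay near the controls. The feedback inhibitors Cish and Socs1 were higher with IL-4, at 55.9, 50.3 and 68.3 CPM against 0.328, 0.839 and 0.472 CPM for Cish (-6.75 ± 0.41, edgeR adjusted p = 6.00e-08) and by -5.53 ± 0.49 for Socs1. Of the transcription factors that IL-4 induces, Irf4 differed by -5.18 ± 0.42, Egr2 by -4.63 ± 0.59, Bhlhe40 by -4.54 ± 0.33, Klf4 by -2.28 ± 0.31 and Pparg by -1.84 ± 0.23. In all, 11 of 18 tested members were higher with IL-4 and 3 with heme-albumin, with a median of -1.86.

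Arginine genes beside Arg1 went both ways. Ass1, argininosuccinate synthase, was higher with heme-albumin, at 61.0, 115 and 70.4 CPM against 23.3, 15.3 and 24.8 CPM (1.95 ± 0.49). Acod1, which makes itaconate, was at 114, 239 and 187 CPM against 2.08, 3.34 and 3.20 CPM (5.95 ± 0.52, edgeR adjusted p = 2.14e-06), and the control mean of 116 ± 17.8 CPM lay on the heme-albumin side. Nos2, the inducible nitric oxide synthase, was at 0 counts with heme-albumin and 0.032 CPM with IL-4, both at or under the floor of 3 counts. Of 14 tested genes 5 were higher and 5 lower, beside 20.4 and 19.8% over all genes. The higher count was 3 without heme-albumin replicate 2 or IL-4 replicate 2 and with the replicate block in the 6 libraries alone.

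Scavenger receptors held calls in both directions, with 4 of 13 higher and 4 lower, beside 20.4 and 19.8% over all genes. Msr1 (SR-A) was at 1039, 946 and 1294 CPM against 330, 304 and 369 CPM (1.71 ± 0.19, edgeR adjusted p = 1.42e-05). Cxcl16, a membrane-bound chemokine that also binds oxidized lipoprotein, differed by 2.44 ± 0.51, from a control mean of 129 CPM above both. Colec12 was higher by 0.66 ± 0.23 (edgeR adjusted p = 0.038), a call lost without any 1 of heme-albumin replicates 1 (0.170) and 3 (0.10) or IL-4 replicates 1 (0.0998), 2 (0.0665) and 3 (0.0879), with the replicate block in the 6 libraries alone (0.0964) or without the filter (0.0506). Stab2 was at 13.7, 4.98 and 10.0 CPM with IL-4 against 0.219, 0 and 0.0786 CPM (-6.47 ± 0.78, and -7.44 without heme-albumin replicate 1). Cd68, a lysosomal glycoprotein, was lower with heme-albumin by 0.73 ± 0.14. Cd36, which takes up oxidized lipid, was at 3218, 7588 and 4133 CPM against 3582, 2521 and 3351 CPM and was not called (0.66 ± 0.27, edgeR adjusted p = 0.067), though it was without heme-albumin replicate 1 (0.0149). Stab1 was not called (0.39 ± 0.47), with controls at 1954 CPM. Scarb1 and Scarb2 were within 2-fold.

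Genes of red pulp macrophages, the splenic cells that recycle red cell iron, were mixed. Spic, their defining transcription factor, was at 22.01, 18.0 and 26.3 CPM with heme-albumin against 0.551, 0.159 and 0.451 CPM (5.80 ± 1.05, edgeR adjusted p = 0.000814). Cd5l was at 535, 283 and 601 CPM against 80.1, 95.01 and 117 CPM (2.28 ± 0.45). With Slc40a1 and Treml4 these made 4 of 12 tested members higher, and 3 were lower, beside 20.4 and 19.8% over all genes. Vcam1 was under 3 CPM with either treatment, and Adgre1, Siglec1, Axl and Cd163 were not called. Pparg, Nr1h3 and Itgad were lower. Nr1h3 (edgeR adjusted p = 0.0441) lost its call when any 1 library was left out (0.0715 to 0.114) or without the filter (0.0720), and Itgad (0.0263) without any 1 heme-albumin replicate (0.0504 to 0.0956) or IL-4 replicate 3 (0.113).

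Fc gamma receptors differed in opposite directions. Fcgr1, the activating high-affinity receptor, was at 73.9, 45.2 and 75.2 CPM against 6.67, 9.22 and 8.96 CPM (2.96 ± 0.27, edgeR adjusted p = 2.12e-06). Fcgr2b, the inhibitory receptor, was at 28.0, 38.8 and 49.9 CPM against 606, 691 and 718 CPM (-4.10 ± 0.27, edgeR adjusted p = 1.15e-07). The control mean was above both treatments for Fcgr1 (140 CPM) and between them for Fcgr2b (167 CPM). Fcgr3 was lower with heme-albumin by 0.77 ± 0.12, and Fcgr4 and the shared chain gene Fcer1g were within 2-fold.

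Of 19 genes of apoptotic cell uptake, 11 were higher with IL-4 and 3 with heme-albumin. Itgb3 differed by -3.49 ± 0.27 and Mfge8, a bridge to phosphatidylserine, by -2.07 ± 0.28. The complement genes C1qa, C1qb and C1qc differed by -2.16 ± 0.78, -2.02 ± 0.64 and -2.38 ± 0.66, with C1qb at 369, 39.4 and 542 CPM with heme-albumin and 1067, 1495 and 1297 CPM with IL-4. Without heme-albumin replicate 3 they differed by -2.94, -2.65 and -3.01. The C1qa call (edgeR adjusted p = 0.0428) was lost without heme-albumin replicate 1 or any 1 IL-4 replicate (0.0561 to 0.110), that of C1qb (0.0230) without IL-4 replicate 2 (0.0606), and all 3 with the replicate block in the 6 libraries alone (0.0686 to 0.103). Without the block, C1qa (0.0696) and C1qb (0.0618) were lost in those libraries, and C1qa without the filter (0.0783). Havcr2 (TIM-3) was higher with heme-albumin by 1.68 ± 0.23. The count higher with IL-4 was 7 without heme-albumin replicate 2, IL-4 replicate 1 or IL-4 replicate 3, and 6 without IL-4 replicate 2, and 7 with the replicate block in the 6 libraries alone. The median of -0.84 was -0.67 with Timd4, unseen in heme-albumin, at its bound. The Timd4 call was lost when any 1 library was left out.

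Chemokines separated by family. CC chemokines were higher with IL-4 in 7 of 11 and with heme-albumin in 2, and CXC chemokines were higher with heme-albumin in 7 of 11 and with IL-4 in 1 (medians -3.05 and 2.29). Ccl8 was at 9.73, 22.7 and 40.6 CPM with IL-4 and had 1 count with heme-albumin. Ccl7, a monocyte attractant, was at 650, 739 and 866 CPM against 51.1, 9.95 and 73.8 CPM (-4.05 ± 1.03), and Ccl6 and Ccl12 differed by -3.05 ± 0.50 and -5.76 ± 0.95 (-6.51 for Ccl12 without heme-albumin replicate 3). Ccl3 and Ccl4 went the other way (2.07 ± 0.25 and 2.00 ± 0.25), at levels close to the controls for Ccl3. Cxcl2, a neutrophil attractant, was at 25.2, 104 and 45.4 CPM against 0.551, 0.794 and 1.63 CPM (5.77 ± 0.70, 5.05 without heme-albumin replicate 2 and 6.42 without IL-4 replicate 3), and Pf4 and Ppbp differed by 2.29 ± 0.34 and 5.36 ± 1.08. Ppbp was highest in heme-albumin replicate 2 and differed by 3.26 without it, by 6.12 without IL-4 replicate 1 and by 4.76 with the replicate block. Cxcl12 was the 1 CXC gene higher with IL-4 (-2.41 ± 0.83, edgeR adjusted p = 0.032), a call lost without heme-albumin replicate 1 (0.0963) or 3 (0.133) or IL-4 replicate 1 (0.0880) or 2 (0.0606), which leaves 0. Its difference was -4.13 without heme-albumin replicate 2, and it was too low to test in the 6 libraries alone.

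Inflammatory mediators were higher with heme-albumin in 10 of 17 and lower in 2, with a median of 1.21. Tnf was at 105, 107 and 134 CPM against 9.00, 9.06 and 9.86 CPM (3.63 ± 0.13, edgeR adjusted p = 1.15e-09). Its control level of 122 ± 6.68 CPM lay near heme-albumin. Ptgs2, the inducible cyclooxygenase, was at 30.8, 93.9 and 35.8 CPM against 0.367, 0.212 and 0.521 CPM (7.08 ± 0.68, and 6.401 without replicate 2), with controls at 0.959 ± 0.281 CPM. For Ptgs2 the controls lay near IL-4. Ptges, which follows it in prostaglandin E synthesis, differed by 2.91 ± 0.61, while Ptgs1, the constitutive enzyme, was lower with heme-albumin by 1.49 ± 0.19. Il10, an anti-inflammatory cytokine, was higher with heme-albumin (2.58 ± 0.56) and Tgfb1 lower by 0.76 ± 0.13. Il1b was at about 0.1 CPM in either treatment, and Il12a and Il12b had no counts.

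The type I interferon response was higher with heme-albumin than with IL-4 in 15 of 24 genes and lower in 1, Usp18 (-1.69 ± 0.34), with a median of 1.09. Oas3 was at 50.6, 75.5 and 41.7 CPM against 5.20, 10.3 and 9.31 CPM (2.74 ± 0.35), and Rsad2 (viperin) at 11.8, 23.01 and 13.9 CPM against 3.49, 4.66 and 3.23 CPM (2.10 ± 0.29). Controls exceeded both treatments, at 93.2 ± 29.8 and 64.9 ± 20.0 CPM (SD). Stat2 was within 2-fold. Of 14 guanylate-binding proteins and immunity-related GTPases, 4 were higher, beside 20.4% over all genes. That count was 1 without heme-albumin replicate 2 or IL-4 replicate 1. None was lower, and 1 was without heme-albumin replicate 2. Gbp9 (1.43 ± 0.23) was called under all 14 alternatives.

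Antigen presentation by MHC class II was higher with IL-4 in 8 of 11 genes, with a median of -1.78. Ciita, the master regulator of the class II genes, was at 22.3, 17.2 and 15.003 CPM against 0.109, 0.120 and 0.472 CPM (-6.06 ± 0.42, edgeR adjusted p = 1.78e-07, and -7.21 without heme-albumin replicate 3). H2-Aa was at 204, 147 and 149 CPM against 7.66, 3.48 and 4.48 CPM (-5.00 ± 0.41), and the invariant chain Cd74 at 1221, 1120 and 998 CPM against 79.5, 50.9 and 69.4 CPM (-4.06 ± 0.32). Class I genes showed little of this. Of 16 tested, 1 was higher (Nlrc5, 1.32 ± 0.13) and 2 were lower (Psmb10 and H2-T23), and B2m differed by 0.06 ± 0.21 with its interval within 2-fold, and by -0.13 without heme-albumin replicate 2. With the replicate block 4 were lower, in the 6 libraries alone 6, and by DESeq2 5, which also called 2 class II genes higher with heme-albumin. The H2 genes share sequence, so their reads may be split. Among costimulatory genes, Tnfsf4 (OX40 ligand; 4.56 ± 0.67), Cd276 (2.88 ± 0.35) and Icosl (1.93 ± 0.39) were higher with heme-albumin (Tnfsf4 at 7.66, 28.6 and 5.90 CPM there, and by 3.51 without replicate 2), and Pdcd1lg2 and Cd40 (-1.84 ± 0.36) with IL-4. Cd274 (PD-L1) was not called (-0.08 ± 0.44). In all, 6 of 13 were higher and 5 lower, and 3 were lower without heme-albumin replicate 1 or IL-4 replicate 2 or 3, in the 6 libraries alone or with upper-quartile scaling, and 2 with the replicate block in the 6 libraries alone.

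Cholesterol synthesis genes were lower in 14 of 23 and higher in none (median -0.98), and LXR targets lower in 8 of 13 and higher in 1, Smpdl3a (1.64 ± 0.31), with a median of -1.36, or in 2 without heme-albumin replicate 2. Scd1, which desaturates stearate, was at 1.42, 2.76 and 1.26 CPM against 142, 249 and 176 CPM with IL-4 (-6.75 ± 0.77, edgeR adjusted p = 2.19e-05), and controls at 202 ± 55.0 CPM lay with IL-4. Scd2 was at 100, 115 and 86.9 CPM against 1477, 1847 and 1595 CPM (-4.03 ± 0.66), also with controls near IL-4 (1314 ± 93.8 CPM). Of the sterol enzymes, Mvd differed by -2.37 ± 0.27, Mvk by -1.86 ± 0.28 and Dhcr7 by -1.68 ± 0.28. The cholesterol exporter Abcg1 was lower with heme-albumin by 2.41 ± 0.33 and Abca1 was not called.

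Among lipid storage genes, Lpl, lipoprotein lipase, was at 10729, 12155 and 10572 CPM against 4504, 2998 and 4261 CPM (1.51 ± 0.17), and Plin2, the lipid droplet coat protein, was at 1662, 2458 and 1733 CPM against 754, 783 and 761 CPM (1.35 ± 0.20). Angptl4 was higher by 2.43 ± 0.30 and the fatty acid binding protein Fabp5 lower by 1.75 ± 0.42. In all, 4 of 16 were higher and 3 lower, shares near the 20.4 and 19.8% over all genes. Glycolysis genes were higher with heme-albumin in 8 of 18 and lower in 1, led by Aldoc (1.67 ± 0.42), Pgk1 (1.35 ± 0.18) and Pkm (1.08 ± 0.14). That count was 4 without heme-albumin replicate 1 or IL-4 replicate 3, and 5 without heme-albumin replicate 3 or IL-4 replicate 1 or with the replicate block in the 6 libraries alone.

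Genes of cell fusion, which IL-4 brings about in macrophages and RANKL in osteoclasts, were higher with IL-4 in 6 of 12 and lower in 1. Atp6v0d2, a proton pump subunit needed for fusion, was at 1158, 822 and 1060 CPM against 6.68, 38.5 and 11.6 CPM (-5.76 ± 0.70, and -6.77 without replicate 2), and Ocstamp at 57.5, 19.9 and 26.9 CPM against 1.64, 0.360 and 0.314 CPM (-5.54 ± 0.94, and -6.67 without heme-albumin replicate 1). Dcstamp was not called (-0.24 ± 0.42). Lysosome genes were higher with IL-4 in 14 of 27 and lower in 1, mostly by less than 2-fold (median -0.50). Atp6v0a1, another pump subunit, differed most, at 1681, 1764 and 1695 CPM against 247, 277 and 254 CPM (-2.72 ± 0.14, edgeR adjusted p = 2.09e-08). Ctsb, cathepsin B, was lower with heme-albumin by 0.90 ± 0.15, and the 95% interval of Ctsl ran from -0.30 to 0.30. Of 15 matrix genes, 5 were higher and 4 lower, beside 20.4 and 19.8% over all genes. Spp1 (osteopontin) was at 14079, 10646 and 13816 CPM against 580, 530 and 832 CPM (4.31 ± 0.58), Mmp8 was higher by 4.00 ± 0.34, and Timp2 was lower by 2.18 ± 0.19. Mmp12 was not called (0.41 ± 0.87), with 1555, 16021 and 2750 CPM in the heme-albumin libraries, replicate 2 far above the rest.

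Proliferation genes held few calls. Of 25 genes of DNA replication and mitosis, none was higher and 2 were lower with heme-albumin, E2f1 and Cdt1, and the count was 0 without heme-albumin replicate 2 or IL-4 replicate 2 and 1 without heme-albumin replicate 3 or IL-4 replicate 1 or 3. With the replicate block in the 6 libraries alone both calls were lost (edgeR adjusted p = 0.0600 for E2f1 and 0.0646 for Cdt1), while without the block 5 genes were lower there. Cdt1 (0.0475) was also lost with upper-quartile scaling (0.0573), without the filter (0.0617) and with a filter of at least 5 CPM in 3 libraries (0.0513). Mki67 was at 153 ± 82.6 CPM with heme-albumin and 187 ± 58.2 CPM with IL-4 (SD), and most intervals of this list were too wide to lie within 2-fold. Of 16 p53 targets, Pmaip1 (1.82 ± 0.28), Tnfrsf10b (1.54 ± 0.27), Mdm2 (1.31 ± 0.13) and Fas (1.25 ± 0.19) were higher, Bbc3 was lower by 1.52 ± 0.23, and Cdkn1a was within 2-fold (-0.05 ± 0.17). In all 4 were higher and 3 lower, shares near the 20.4 and 19.8% over all genes. Without heme-albumin replicate 2 or IL-4 replicate 1 or 3, 1 was lower. Immediate early genes were higher with IL-4 in 9 of 18, among them Jun (-1.32 ± 0.16) and Ier3 (-1.68 ± 0.12), and higher with heme-albumin in 4, led by Fosl1 at 35.5, 28.6 and 31.2 CPM against 1.53, 0.530 and 1.11 CPM (4.91 ± 0.34).

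**Figure D4:**
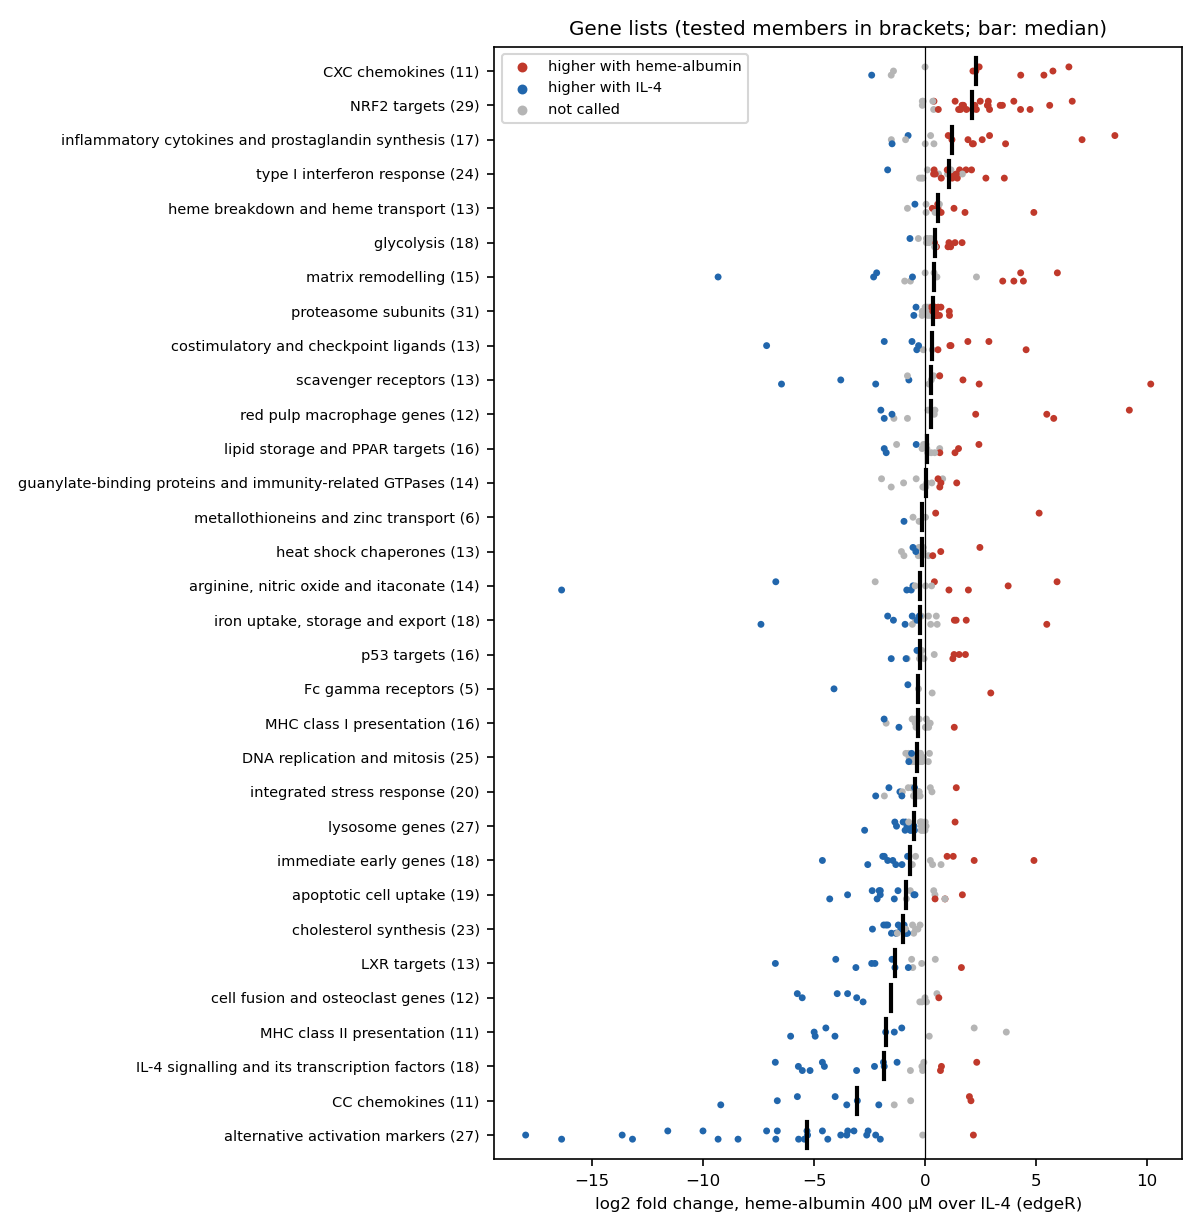
Fitted log2 difference of heme-albumin 400 µM over IL-4 for each tested member of the 32 gene lists, ordered by list median (black bar), with the number tested in brackets. Red members were higher with heme-albumin, blue higher with IL-4 and grey not called, and a gene without counts in 1 group is drawn at its fitted value, which is no bound. The medians run from -5.32 for alternative activation markers to 2.29 for CXC chemokines.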

How the data were processed

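Raw counts per gene were deposited by the authors as 1 table of 15 columns, made with STAR 2.7.0e, SAMtools 1.9 and featureCounts on GRCm38.p5, per the submitters' processing notes. For the counting, neither the annotation nor the strand option is stated, so reads of genes whose exons overlap another gene's cannot be assigned with certainty. Among those named these are Bex1, Cd276, Ciita, Csf1r, Ctsb, Cxcl16, Ddit3, Fosl1, Fpr2, Ftl1, G6pdx, Gbp9, Il2rg, Itgad, Itgam, Mafg, Mmp12, Pkm, Ptgs1, Slc48a1, Spp1, Stab1, Stat6, Tgm2 and Trf. Of 25700 identifiers, 25664 were matched to GENCODE M21 for symbols and positions.

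Counts were tested with edgeR 4.0.16 (R 4.3.3): filterByExpr, TMM, 1 robust quasi-likelihood fit of group means over all 15 libraries, and Benjamini-Hochberg adjustment over 11883 genes. Intervals of 95% came from the same fit, and a gene counted as bounded within 2-fold only with over 3 counts in either group. Alternatives were DESeq2 1.42.0, other scalings and filters, only the 6 libraries, the replicate block, and each library left out. Members, gene lists and tests were chosen with earlier results of these data known. Named genes were the 14 largest called differences per direction with at least 1 CPM and no overlap, skipping predicted genes, up to 4 called members of smallest p per direction and list, all members of the heme breakdown, alternative activation and scavenger receptor lists, and the 6 most abundant bounded list genes. Other list members named were chosen after their values were seen.

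The dates in the column names pair the replicate numbers, and the main fit did not use this pairing. Deviations of same-numbered heme-albumin and IL-4 libraries correlated at 0.0487, -0.103 and 0.109. Over all groups, 30 same-numbered pairs had a median of 0.144 (-0.168 to 0.474), 19 of them over 0.1, and 60 other pairs a median of -0.0688, 6 of them over 0.1. The procedure was tested on simulated data, with 11883 genes drawn for this comparison: it called 14 of 50 true 1.5-fold changes, 38 of 50 true 2-fold changes and 45 of 50 true 4-fold changes. Its 150 calls held 8 false ones. In the simulation only the changed genes differed, in the heme-albumin group alone, and no library stood apart. The real groups differ in many more genes, so these rates need not hold for them. Some list members are counted but not reported here by name. Figures were drawn with matplotlib 3.10.9.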

Additional observations from a re-analysis of the deposited data

How the results depend on the processing

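The 5 counts over all genes (higher, lower, each by at least 2-fold, and bounded within 2-fold) stayed within 1.5 times under all 14 alternatives, and no called named gene changed direction. The uncalled Lrp1, Pgrmc1, Folr2, Scarb1, Ctsl and B2m, 6 genes, changed sign under at least 1 alternative. With the replicate block, 2617 genes were higher and 2525 lower, and with the block and only the 6 libraries 1962 and 1838. DESeq2 gave 2615 and 2438. With each library left out, 2009 to 2479 were higher and 1865 to 2393 lower. Genes higher with heme-albumin made up 49.1 to 55.0% of calls across the alternatives. Of 227 named genes tested, 212 were called, 185 of them under every alternative that tested them. The other 27 were lost under at least 1, and 6 uncalled genes were called under at least 1. The replicate block with all libraries added Abcg2 (adjusted p = 0.0450) and Slc46a1 (0.0346) and took away no named call. With at least 5 CPM in 3 libraries, which tests fewer genes, 4 CXC chemokines and 3 matrix genes were higher. The other causes were not tested. Depth limits what genes of low level can show: the heme-albumin libraries were the smaller ones, list members too low to test are undecided, and wide intervals, as in proliferation genes, bound little.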
